A study of Homo sapiens with 70 samples.

Results

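The *HOX* genes encode homeodomain transcription factors that lie in 4 clusters in the human genome. All 39 of them were followed through 3 RNA sequencing experiments, on oncogene-induced senescence in fibroblasts and on lung carcinoma cells. Members were taken by symbol, as every gene named HOXA, HOXB, HOXC or HOXD followed by a number, which gave 39 of the 44503 genes counted in each experiment. On the hg19 assembly the *HOXA* cluster holds 11 of them on the minus strand of chromosome 7 (27132612 to 27239725), and the *HOXB* cluster holds 10 on the minus strand of chromosome 17 (46605888 to 46806540). The *HOXC* cluster holds 9 on the plus strand of chromosome 12 (54332535 to 54449813), and the *HOXD* cluster holds 9 on the plus strand of chromosome 2 (176957619 to 177055688). The number in a symbol is the paralogue group, which follows the order of genes along a cluster, and members were read as anterior (groups 1 to 3, 8 genes), central (groups 4 to 8, 15 genes) or posterior (groups 9 to 13, 16 genes).

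During development *HOX* genes are switched on in the order in which they sit in a cluster, anterior genes earlier and nearer the head, posterior genes later and nearer the tail. Adult fibroblasts keep much of that regional pattern, so the set of active *HOX* genes reports where in the body a fibroblast came from. The proteins bind DNA together with PBX and MEIS partners of the TALE homeodomain class, and Polycomb complexes hold the unused genes of a cluster silent by methylating histone H3 at lysine 27, against trithorax complexes that keep active genes on.

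In the first experiment, IMR90 cells, a line of normal human lung fibroblasts, grew normally (Grow) or were made senescent by an activated oncogene (OIS), with or without a short hairpin RNA against *HMGA1*, which codes for an abundant chromatin architectural protein (8 libraries for each of the groups Grow, OIS, Grow-shA1 and OIS-shA1). All IMR90 groups, Grow included, carried the ER:HRAS G12V fusion on the pLNCX2 vector, and OIS cells received 100 nM 4-hydroxytamoxifen (4OHT), which switches the fusion on, for 6 days, while Grow cells received none. The shA1 cells carried the hairpin in a miR30 backbone on a pMSCV vector and their controls the empty vector. The second experiment used the same IMR90 ER:HRAS G12V cells with pSuper hairpins against *CEBPB*, pMSCV miR30 hairpins labelled shp53, or both, each against the empty vectors (OIS-shp53, OIS-shCEBPB and the double OIS-shCEBPB-shp53, with OIS-v-v and the growing Grow-v-v as controls, 5 libraries each). By the labels Grow-v-v was taken at day 0 and the OIS groups of this experiment at day 6. In each comparison of OIS with growing cells, 4OHT itself and any difference in time in culture cannot be told apart from senescence. The third experiment compared H1299 cells, a non-small cell lung carcinoma line without the RAS fusion, carrying the empty pMSCV vector (7 libraries) or the *HMGA1* hairpin (H1299-shA1, 6 libraries).

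The 70 libraries held from 1903607 to 24890797 counts, and OIS replicate 4 of the first experiment was the shallowest. The transcripts of *HMGA1* and *CEBPB* were lower under their hairpins: *HMGA1* averaged 479 CPM (counts scaled to library size) in Grow and 34.5 in Grow-shA1, and *CEBPB* 296 CPM in OIS-v-v and 35.5 in OIS-shCEBPB. *HMGA1* also averaged 1887 CPM in H1299 and 379.5 CPM in H1299-shA1. All 9 fibroblast markers averaged at least 1 CPM in every IMR90 group and 1 of 9 did in the libraries labelled H1299. Of 6 epithelial markers, 3 did in H1299, 3 in Grow and in Grow-shA1, and 2 in each other IMR90 group. The summed CPM of the epithelial markers ran from 818.9 to 1134 in H1299 and from 71.06 to 93.92 in Grow. The summed CPM of the 9 fibroblast markers, which are mostly collagens and matrix proteins, ran from 34780 to 43120 in Grow and from 3573 to 4812 in OIS, and from 31930 to 46020 in Grow-v-v and from 8487 to 15580 in OIS-v-v. Their part in the changes of *HOX* genes was not tested, and in bulk RNA fewer cells that express a gene cannot be told apart from less RNA per cell.

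Some libraries of the second experiment stood apart by their replicate number. In all 4 OIS groups replicates 4 and 5 lay below replicates 1, 2 and 3 for *HOXB5*, *HOXB6* and *HOXB8* and above them for *HOXB4*, 4 of the 12 members at 1 CPM or more. Among all 12644 genes at that level, 11.4% lay below and 8.95% above in the same way. The labels do not say how replicates 4 and 5 differ from the others. This split was seen in the values and was not set in advance. Results of the second experiment are therefore also given for replicates 1 to 3 alone and for replicates 4 and 5 alone.

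The promoters of 6 members are printed, picked from the 20 members with a promoter window because these genes carried contrasts described further on. *HOXA2*, *HOXA3* and *HOXA4* were called lower in senescent fibroblasts of the second experiment, *HOXA2* in replicates 1 to 3 and not in replicates 4 and 5 alone, and *HOXA9*, *HOXA13* and *HOXD13* are posterior genes that were at or near 0 in growing IMR90 cells and were expressed in H1299. The sequences are RefSeq promoter windows (taken from the GRCh38.p14 assembly), cut to the bases upstream of the start and placed on GRCh37, the assembly behind hg19, by an exact match. They read 5′ to 3′ on the gene's strand with motif matches in capitals. By the hg19 gene spans, the *HOXA9* window lay inside its gene (27202054 to 27210117). The *HOXA2* window overlapped its gene, whose span runs to 27142430, and the *HOXA4* and *HOXA13* windows overlapped the edge of theirs. The motifs searched on both strands were the TATA box (TATAAA), the CCAAT box (CCAAT), a PBX-HOX site (TGATNNAT), an AP-1 site (TGANTCA), a C/EBP site (TTGCNNAA), an E-box (CACGTG) and a nuclear receptor site (AGGTCA), where N is any base.
HOXA2, chr7:27142303-27142552, minus strand: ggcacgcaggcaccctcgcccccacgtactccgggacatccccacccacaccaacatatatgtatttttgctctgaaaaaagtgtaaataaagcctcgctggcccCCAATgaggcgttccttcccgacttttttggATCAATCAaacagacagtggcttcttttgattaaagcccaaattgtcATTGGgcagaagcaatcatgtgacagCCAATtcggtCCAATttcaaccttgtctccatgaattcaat
HOXA3, chr7:27192203-27192452, minus strand, the outermost of 7 listed starts: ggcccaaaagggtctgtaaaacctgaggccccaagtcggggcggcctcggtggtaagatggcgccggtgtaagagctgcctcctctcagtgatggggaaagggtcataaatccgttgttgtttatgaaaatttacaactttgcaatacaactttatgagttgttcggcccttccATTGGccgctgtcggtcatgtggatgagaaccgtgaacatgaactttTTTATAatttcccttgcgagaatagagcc
HOXA4, chr7:27170400-27170626, minus strand: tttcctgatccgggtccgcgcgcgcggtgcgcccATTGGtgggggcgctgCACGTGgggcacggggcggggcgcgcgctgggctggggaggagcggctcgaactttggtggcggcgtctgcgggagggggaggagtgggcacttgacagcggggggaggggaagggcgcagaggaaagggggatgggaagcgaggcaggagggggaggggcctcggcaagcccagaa
HOXA9, chr7:27205157-27205406, minus strand: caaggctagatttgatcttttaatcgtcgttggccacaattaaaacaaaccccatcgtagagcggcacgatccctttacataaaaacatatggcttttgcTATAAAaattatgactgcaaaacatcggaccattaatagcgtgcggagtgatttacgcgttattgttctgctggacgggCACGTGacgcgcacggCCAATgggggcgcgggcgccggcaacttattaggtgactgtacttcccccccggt
HOXA13, chr7:27239711-27239960, minus strand: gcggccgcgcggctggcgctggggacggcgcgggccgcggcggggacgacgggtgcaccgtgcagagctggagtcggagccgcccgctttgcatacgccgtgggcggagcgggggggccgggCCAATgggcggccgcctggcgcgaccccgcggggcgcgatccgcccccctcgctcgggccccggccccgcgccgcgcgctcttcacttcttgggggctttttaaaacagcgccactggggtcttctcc
HOXD13, chr2:176957199-176957448, plus strand: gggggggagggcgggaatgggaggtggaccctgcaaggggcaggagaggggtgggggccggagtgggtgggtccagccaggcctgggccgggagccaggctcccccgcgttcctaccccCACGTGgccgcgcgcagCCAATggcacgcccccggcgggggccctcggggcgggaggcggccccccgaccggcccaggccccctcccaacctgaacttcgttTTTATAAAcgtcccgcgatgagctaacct

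These windows fell on either side of the 58.0% median GC content of the 35116 windows in the table. *HOXA2* (47.2% GC), *HOXA3* (48.8%) and *HOXA9* (48.8%) were below it, while *HOXA4* (73.6%), *HOXA13* (78.0%) and *HOXD13* (74.0%) were above it. A CCAAT box, in capitals above as CCAAT or its reverse complement ATTGG, occurred in all 6 windows, with 4 matches in *HOXA2* and 1 in each of the others, and 32% of all full-length windows held it. A TATA box occurred in *HOXA3* as its reverse complement TTTATA, at 29 bases before the start. It also occurred in *HOXA9* on the gene's strand and in *HOXD13* as 2 overlapping matches on opposite strands, against 10.7% of all windows. The PBX-HOX letters were found in *HOXA2* alone among these 6, against 6.47% of all windows. The E-box was found in *HOXA4*, *HOXA9* and *HOXD13*, against 6.34% of all full-length windows, and the shorter *HOXA4* window (227 bases) compares with 5.67% at its length. The AP-1, C/EBP and nuclear receptor letters had no match in these 6 windows, and 6.57%, 9.05% and 12.1% of all windows held them. Of the 39 members, 20 had a window in the table. The 19 without a window included *HOXA5*, every gene from *HOXB2* to *HOXB9*, *HOXB13*, *HOXC6* and every gene from *HOXC8* to *HOXC13*.

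Growing IMR90 cells ran almost wholly on the *HOXB* cluster. *HOXB* genes gave 95.4% of the summed *HOX* signal of 223.1 ± 9.32 CPM in Grow (SD, n = 8), *HOXA* genes 2.5% and *HOXC* genes 2.1%, and no count fell on any of the 9 *HOXD* genes in any Grow library. Of the 39 members 11 averaged at least 1 CPM in Grow, which were the 7 genes from *HOXB2* to *HOXB8*, *HOXA3* and *HOXA5*, and *HOXC6* and *HOXC8*. By position, 3 of 8 anterior and 8 of 15 central genes reached 1 CPM, and 0 of 16 posterior genes did. A count of 0 over all 8 Grow libraries allows up to 0.0217 CPM, with 3 counts as the limit, which covers counting error only.

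Levels of different genes were compared per kilobase of exon. Per kilobase *HOXB5*, which helps pattern lung and other foregut mesenchyme, led in Grow at 24.2 ± 1.71 CPM per kb, above *HOXB2* at 18.9 ± 1.04 and *HOXB7* at 11.9 ± 0.997. These neighbours in the order were separated by more than their SDs. *HOXB3* (6.22 ± 0.51) and *HOXB6* (5.45 ± 0.42) came next and their SDs overlapped, followed by *HOXB4* at 3.44 ± 0.55 and *HOXA5*, a lung and airway patterning gene, at 1.121 ± 0.29. *HOXB1* at the anterior end and *HOXB13* at the posterior end of the same cluster were at 0 or near it in all IMR90 groups. The order of levels within *HOXB* did not follow the order of the genes along the chromosome.

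**Figure D1:**
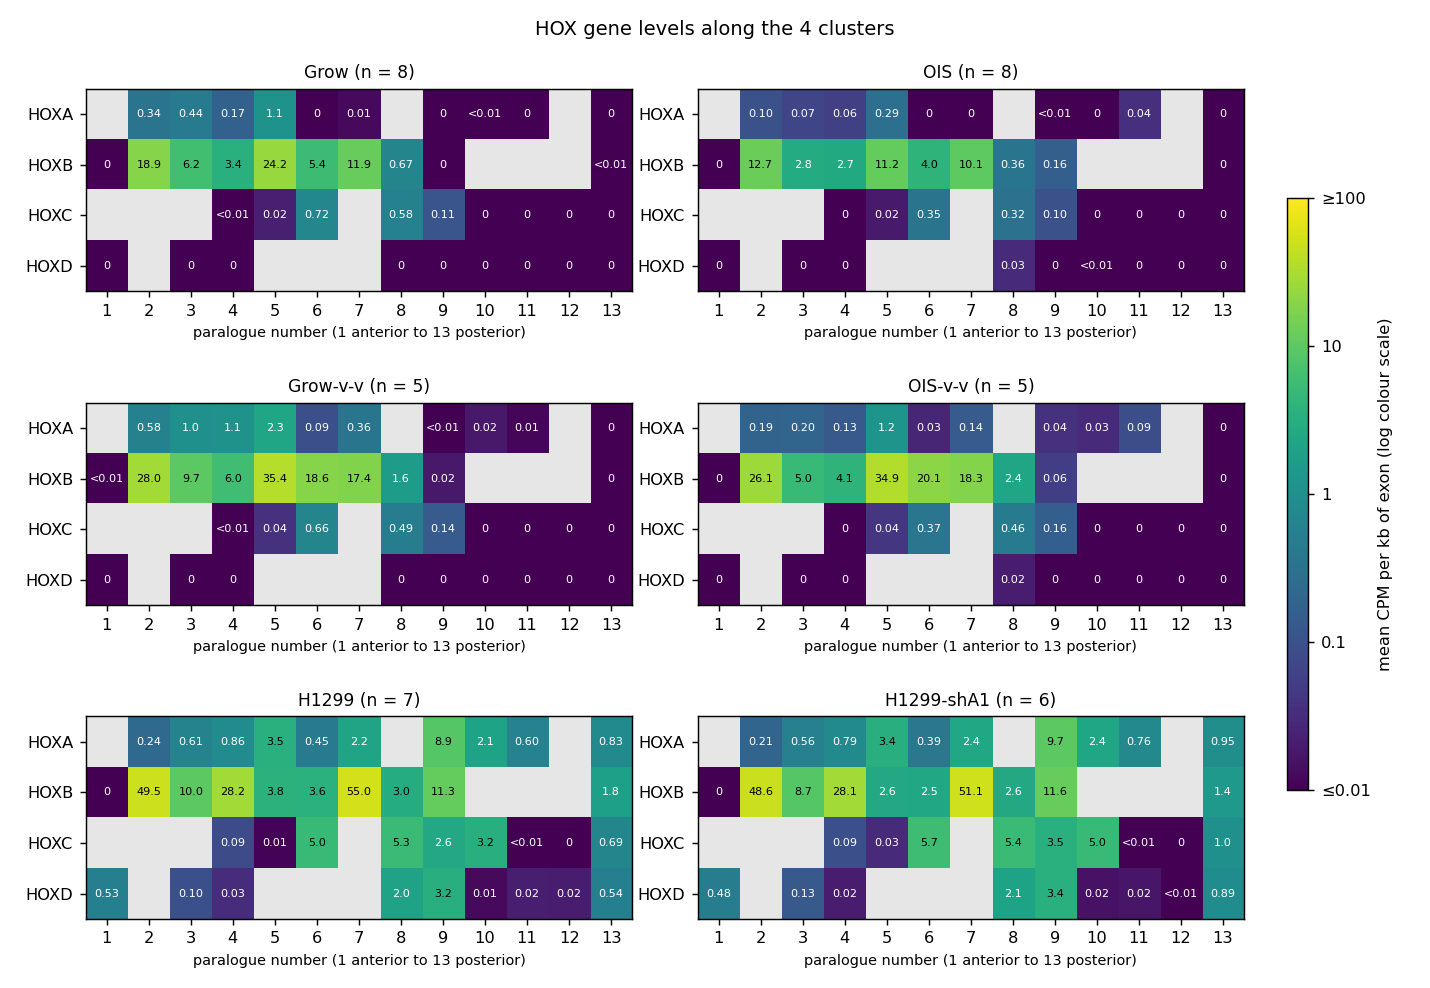
Mean level of *HOX* genes in CPM per kilobase of exon, with its genes in order along each cluster, in Grow, OIS, Grow-v-v, OIS-v-v, H1299 and H1299-shA1, on a log colour scale with the value printed in each cell and cells with no value shown in grey. Most IMR90 signal sits in *HOXB2* to *HOXB7* with every posterior gene below 0.2 CPM per kb, and H1299 signal extends to the posterior end of all 4 clusters.

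The second experiment gave the same picture in its own growing cells. *HOXB* genes made 95.3% of 382.8 ± 25.6 summed *HOX* CPM in Grow-v-v (n = 5), 14 members reached 1 CPM, and again 0 of 16 posterior genes and no *HOXD* gene did. The added members at 1 CPM included *HOXA2* and *HOXA4*. *HOXA4* averaged 1.90 CPM in Grow-v-v and 0.305 CPM in Grow, and *HOXA7* 0.878 and 0.0303 CPM. The tables were scaled separately, so these levels stand side by side and were not tested. In the tables of the first and the third experiment the counting took no account of strand and left out reads on more than 1 gene, so genes that overlap others lost reads there. The counting settings of the second experiment are not given in the sources used here. The overlapped share of exon bases was 80.5% for *HOXD4*, 78.9% for *HOXC4*, 72.7% for *HOXC12*, 62.5% for *HOXA7*, 59.9% for *HOXC5* and 47.3% for *HOXA4*, and it was 0 for *HOXA5*, *HOXB7*, *HOXB8*, *HOXB9* and *HOXC8*, so low levels of the former are uncertain.

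H1299 cells expressed all 4 clusters. In H1299, 27 of 39 members averaged at least 1 CPM, among them 11 of 16 posterior genes, and posterior genes gave 15.4% of the summed 617.7 ± 27.5 CPM (n = 7). *HOXB* still led with 80.1%, followed by *HOXA* with 9.4%, *HOXC* with 8.0% and *HOXD* with 2.4%. Per kilobase the order was *HOXB7* (55.03 ± 1.18 CPM per kb) and *HOXB2* (49.5 ± 4.31), then *HOXB4* (28.2 ± 1.63), *HOXB9* (11.3 ± 1.27), *HOXB3* (9.95 ± 0.56) and *HOXA9* (8.86 ± 0.36), where *HOXB9* and *HOXB3* lay within their combined SDs. *HOXB5*, which led in Grow, was at 3.78 ± 0.20. Among posterior genes *HOXA9*, a gene well known from leukaemia, was counted at 20.97, 22.8 and 23.6 CPM (lowest, median, highest) in H1299 and at 0 in all 8 Grow libraries, and *HOXC10* at 5.72, 7.42 and 8.75 CPM in H1299 with no count in any IMR90 library. *HOXB1* and *HOXC12* had no count in H1299, and *HOXC11* had 1.

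*HOX* expression was lower in senescent cells of the first experiment. Of the 12 members tested in OIS against Grow, 11 fell, none rose, and 1 was not called. Among all genes tested 74.8% were called in this comparison, 35.9% as lower. The members' median log2 fold change was -0.75, against 0.03 for all genes tested, and the OIS and Grow libraries did not overlap for 7 of the 12, against 43.7% of all genes tested (23.8% with OIS lower). The summed *HOX* signal was 133.6 ± 5.97 CPM in OIS. A member needed enough counts in 1 of the groups to be tested, so these 12 are not all members, and 27 were not tested.

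The largest falls were those of *HOXA3* and *HOXA5*. *HOXA3*, an anterior gene needed for thymus and parathyroid formation, was at 1.43, 1.80 and 2.49 CPM in Grow (lowest, median, highest) and at 0.109, 0.321 and 0.488 CPM in OIS. Every OIS library was below every Grow library, from 22 to 46 counts in a Grow library and from 1 to 7 in an OIS library. *HOXA3* fell by 2.72 ± 0.26 on the log2 scale (SE, edgeR's quasi-likelihood test with Benjamini-Hochberg adjustment, adjusted p = 1.76e-10), and *HOXA5* by 1.91 ± 0.30 (adjusted p = 1.91e-06), from 1.31, 1.91 and 2.45 CPM to 0, 0.473 and 0.978 CPM. *HOXA2* was too low for the test, at 99 counts over the Grow libraries and 30 over the OIS libraries. So was *HOXA4*, at 42 counts over the Grow libraries and 15 over the OIS libraries.

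Within *HOXB* the falls were graded. *HOXB3* was at 36.2, 43.98 and 47.8 CPM in Grow and 15.7, 18.1 and 28.3 CPM in OIS, and *HOXB5* at 45.5, 48.7 and 54.1 CPM in Grow and 19.1, 22.1 and 28.05 CPM in OIS. The groups did not overlap for either gene. *HOXB3* fell by 1.17 ± 0.07 (edgeR adjusted p = 3.02e-14) and *HOXB5* by 1.08 ± 0.07 (adjusted p = 9.62e-15) on the log2 scale, and *HOXB2*, *HOXB4*, *HOXB6* and *HOXB7* fell by 0.28 to 0.55, less than either. *HOXC6* fell by 1.04 ± 0.21 (adjusted p = 7.44e-05) and *HOXC8* by 0.68 ± 0.21 (adjusted p = 0.00532), and *HOXB8* fell too. Scaling by library sizes alone moved the median of all genes by 0.19 in this comparison, gave the members a median of -0.56, and left 10 of the 11 called, with *HOXB7* at -0.09 (adjusted p = 0.265). Without OIS replicate 4, the shallow library, the count of called members stayed at 11.

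**Figure D2:**
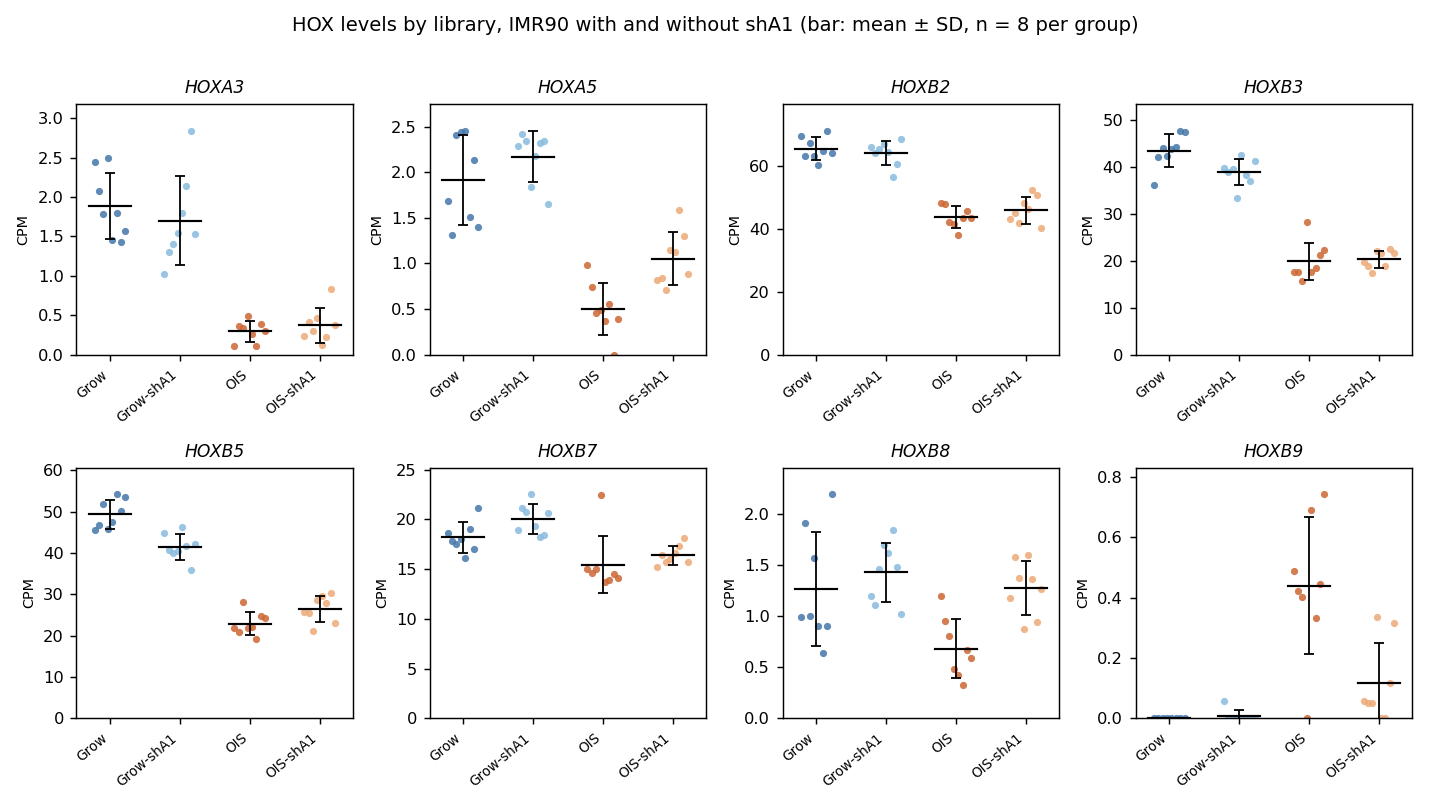
Level in CPM of *HOX* genes in each library (points) of the 4 groups of the first IMR90 experiment, with the group mean ± SD as lines (n = 8). *HOXB3*, *HOXB5* and *HOXA3* separate the Grow from the OIS groups with no overlap, with and without the *HMGA1* hairpin.

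The comparison was made again in cells with the *HMGA1* hairpin, which shared no library with the one above. In OIS-shA1 against Grow-shA1, 11 of 13 members tested fell and none rose, where 73.1% of all genes tested were called and 36% were lower and 37.1% higher. The groups did not overlap for 8 of the 13, against 43.4% of all genes tested (23.0% with OIS-shA1 lower). *HOXA3* fell by 2.18 ± 0.29 (edgeR adjusted p = 1.42e-07), *HOXC6* by 1.33 ± 0.16 (4.37e-08), *HOXC8* by 1.16 ± 0.21 (1.75e-05), *HOXA5* by 1.02 ± 0.18 (1.37e-05), *HOXB3* by 0.93 ± 0.06 (1.85e-13) and *HOXB5* by 0.64 ± 0.07 (3e-09) on the log2 scale. *HOXA2*, from 1.18 CPM to 0.326 CPM, fell as well. *HOXA4* was again too low for the test, at 46 counts over the Grow-shA1 libraries and 5 over the OIS-shA1 libraries. *HOXB8* did not pass the test, at -0.14.

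In the second experiment most called falls were in *HOXA*. More *HOXA* genes had enough counts to be tested there, 6 against 3 in OIS against Grow. Of 15 members tested in OIS-v-v against Grow-v-v, 8 fell and none rose, where 45.8% of all genes tested were called and 23.2% were lower. The 8 were 5 of the 6 *HOXA* genes tested, *HOXB3*, *HOXB4* and *HOXC6*. The groups did not overlap for 7 of the 15, against 34.9% of all genes tested (18% with OIS-v-v lower). *HOXA3* was at 4.31, 4.41, 3.47, 4.44 and 5.33 CPM in the Grow-v-v libraries and 1.01, 1.01, 0.702, 0.598 and 1.02 CPM in the OIS-v-v libraries, all of the latter lower. *HOXA4* was at 1.55, 1.19, 2.37, 2.05 and 2.31 CPM in Grow-v-v and 0.393, 0.238, 0.175, 0.109 and 0.241 CPM in OIS-v-v, likewise without overlap. *HOXA4* fell by 2.99 ± 0.32 (edgeR adjusted p = 1.16e-05), *HOXA3* by 2.32 ± 0.20 (1.52e-06), *HOXA5* by 0.97 ± 0.19 (0.00119), *HOXB3* by 0.95 ± 0.08 (1.5e-06), *HOXC6* by 0.80 ± 0.18 (0.00296) and *HOXB4* by 0.56 ± 0.15 (0.00941) on the log2 scale. The remaining falls were *HOXA2* and *HOXA7*, both under 1 CPM on average. *HOXA2* was at -2.97 ± 0.40 in replicates 1 to 3 alone (edgeR adjusted p = 9.73e-07) and at -0.33 ± 0.43 in replicates 4 and 5 alone (adjusted p = 0.581).

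Central *HOXB* genes took different directions in the replicate sets of this experiment. *HOXB5* was at 72.8, 76.5, 73.1, 65.1 and 74.5 CPM in Grow-v-v replicates 1 to 5 and at 82.7, 86.6, 80.4, 55.1 and 51.9 CPM in OIS-v-v. Replicates 1 to 3 of OIS-v-v lay above all Grow-v-v libraries and replicates 4 and 5 below them, and over all 5 replicates the difference was -0.02 ± 0.14 (not called). With the replicate number as a block 8 members were again called, where 49.7% of all genes were. *HOXB6* went from 69.5, 64.6, 69.3, 76.4 and 98.6 CPM to 90.0, 93.3, 94.7, 66.1 and 64.4 CPM. In replicates 1 to 3 alone, *HOXB6* rose by 0.44 ± 0.06 (edgeR adjusted p = 3.31e-07), *HOXB8* by 0.82 ± 0.16 (6.7e-05) and *HOXB5* by 0.16 ± 0.06 (0.0148), and the same 8 members fell, 11 called in all where 66.8% of all genes were. In replicates 4 and 5 alone, *HOXB6* fell by 0.42 ± 0.15 (adjusted p = 0.0408) and *HOXB5* was at -0.38 ± 0.15 (adjusted p = 0.0504), and 4 members were called where 40.5% of all genes were. *HOXA3*, *HOXA4* and *HOXB3* were called lower in both sets, at -2.16 and -2.59, -2.64 and -3.60, and -1.08 and -0.77.

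Of the 12 members tested in all 3 comparisons of OIS with Grow, 5 were called lower in each: *HOXA3*, *HOXA5*, *HOXB3*, *HOXB4* and *HOXC6*. Of all 12653 genes tested in the 3 comparisons, 19.3% were called lower in each. These comparisons share no library, but all 3 were made in IMR90 cells with the same RAS fusion.

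**Figure D3:**
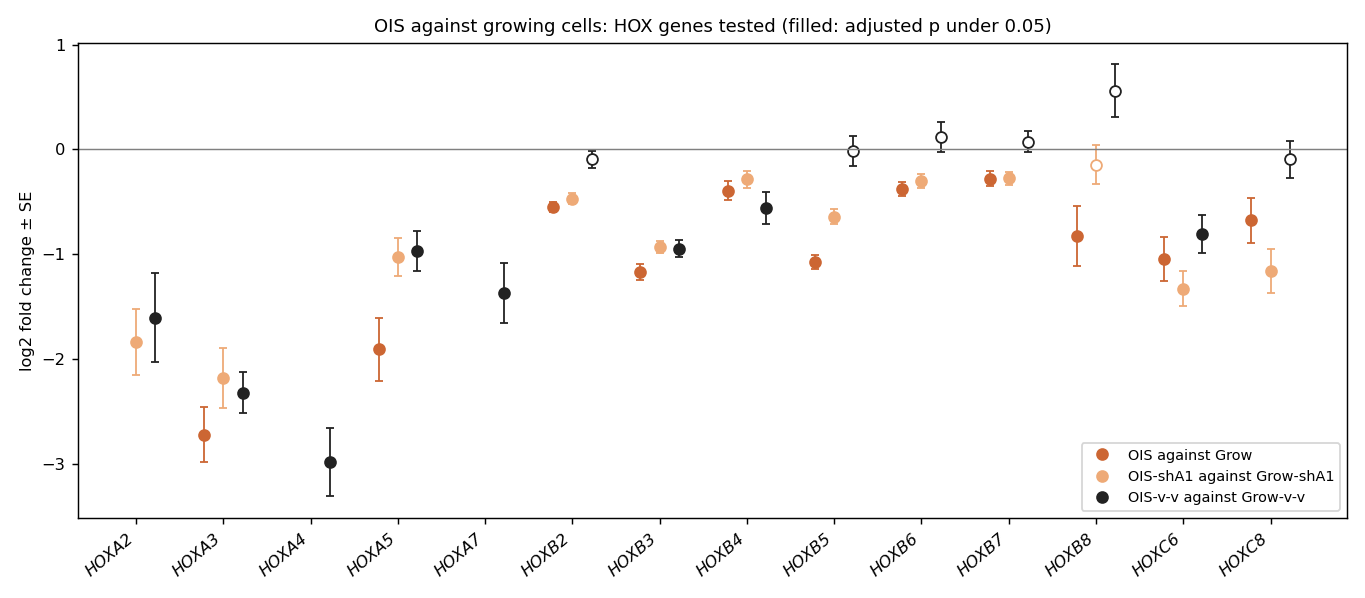
Log2 fold change with its standard error for *HOX* genes tested in OIS against Grow, OIS-shA1 against Grow-shA1 and OIS-v-v against Grow-v-v. *HOXA3* lies below -2 in each, and *HOXB5* (-0.02), *HOXB6* (0.12) and *HOXB7* (0.075) lie near 0 in OIS-v-v against Grow-v-v. Filled points passed the test and open points did not.

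A few genes with few or no counts in growing cells had counts in senescent ones. They failed the filter on low counts and were chosen after their counts were seen, so the counts are given with no test. *HOXB9*, a posterior gene, had no count in the 8 Grow libraries and 66 counts over the OIS libraries, with 9, 8, 7, 0, 13, 6, 8 and 15 in replicates 1 to 8, the 0 in the shallow library. Pooled over the groups this was 0.500 CPM in OIS and at least 23.0-fold higher than the 0.0217 CPM that a count of 0 over all Grow libraries allows. With the *HMGA1* hairpin *HOXB9* had 1 count in Grow-shA1 and 15 in OIS-shA1. In the second experiment it had 4 counts over Grow-v-v and 13 over OIS-v-v. For scale, *HOXB9* averaged 30.5 ± 3.43 CPM in H1299.

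*HOXA11*, also posterior, had 0 counts in Grow, 12 in OIS, 2 in Grow-shA1, 24 in OIS-shA1, 2 in Grow-v-v and 18 in OIS-v-v. Counts of *HOXA11* came from 6 of 8 OIS, 8 of 8 OIS-shA1 and 4 of 5 OIS-v-v libraries. *HOXD8* had 0 counts in Grow and 10 in OIS, from 4 of 8 libraries. Each stayed at or below 0.208 pooled CPM, so the posterior and *HOXD* genes remained under 1 CPM in all senescent groups.

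In growing cells with the *HMGA1* hairpin *HOXB5* and *HOXB3* fell. Of 13 members tested in Grow-shA1 against Grow, 3 were called, 2 lower and 1 higher, a share (23.1%) near the 29.9% of all genes tested. *HOXB5* went from 45.5, 48.7 and 54.1 CPM in Grow to 35.9, 41.2 and 46.2 CPM in Grow-shA1 and fell by 0.25 ± 0.05 on the log2 scale (edgeR adjusted p = 0.0006), with overlapping groups. *HOXB3* fell by 0.16 ± 0.05 (adjusted p = 0.0253). The call of *HOXB3* was lost without Grow-shA1 replicate 4, Grow replicate 7 or Grow replicate 8. It was also lost with library sizes alone and with all groups in 1 fit. *HOXA9*, chosen after its counts were seen, had no count in Grow and 13 over the Grow-shA1 libraries.

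In senescent cells the members were called about as often as other genes. Of 11 tested in OIS-shA1 against OIS, 4 rose and none fell, where 35.9% of all genes were called and 18.8% were higher. They included *HOXB5*, which averaged over 1 CPM, and *HOXA5* and *HOXB8*, which did not and are named after their values were seen. *HOXA5* was at 0, 0.473 and 0.978 CPM in OIS and 0.712, 1.004 and 1.58 CPM in OIS-shA1, and *HOXB8* at 0.331, 0.631 and 1.195 CPM in OIS and 0.874, 1.31 and 1.59 CPM in OIS-shA1. Their groups overlapped. *HOXA5* averaged 1.92 CPM and *HOXB8* 1.26 CPM in Grow, and the comparisons of OIS with Grow and with OIS-shA1 share the OIS libraries. *HOXA5* rose by 1.07 ± 0.32 (edgeR adjusted p = 0.0108), *HOXB8* by 0.86 ± 0.24 (0.00632) and *HOXB5* by 0.20 ± 0.08 (0.0498) on the log2 scale. Leaving out OIS-shA1 replicate 7 or OIS replicate 8 left 2 members called. *HOXB5* kept its call only when OIS-shA1 replicate 3 or 8 or OIS replicate 3 or 7 was the library left out, and it was not called by DESeq2, with upper-quartile factors or with library sizes alone.

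Of the 13 members tested for a difference between the conditions in the response to the hairpin, *HOXB5* was the 1 called. The fall of *HOXB5* in OIS relative to Grow was smaller with the hairpin by 0.45 ± 0.10 on the log2 scale (edgeR interaction term, adjusted p = 0.000505), where 23.6% of all genes were called. *HOXA5* at 0.89 ± 0.36 and *HOXB3* at 0.25 ± 0.10 did not pass (adjusted p = 0.0638 and 0.0633). Leaving out 1 library at a time gave 2 or 3 called members without Grow replicate 1 or 2, Grow-shA1 replicate 5, OIS replicate 1, 2, 4, 7 or 8, or OIS-shA1 replicate 3, and *HOXB5* was called in each of the 32 fits.

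Depletion of *CEBPB*, which codes for a transcription factor that drives inflammatory genes in senescence, went with higher levels of some *HOXB* genes in senescent cells. Of 12 members tested in OIS-shCEBPB against OIS-v-v, 3 rose and none fell, where 17.1% of all genes were called and 9.09% were higher, and all 3 were in *HOXB*. *HOXB3* was at 33.4, 31.8, 34.3, 39.8 and 35.6 CPM in OIS-v-v and 64.0, 62.5, 59.7, 56.6 and 57.1 CPM in OIS-shCEBPB. *HOXB2* was at 92.2, 85.4, 99.5, 87.5 and 86.4 CPM in OIS-v-v and 135.2, 133.4, 139.8, 121.0 and 112.6 CPM in OIS-shCEBPB. Neither gene's groups overlapped. *HOXB3* rose by 0.78 ± 0.07 (edgeR adjusted p = 1.01e-05), *HOXB5* by 0.71 ± 0.19 (0.0204) and *HOXB2* by 0.51 ± 0.07 (0.000357) on the log2 scale. There was no overlap between the groups for 2 of the 12 members, against 15% of all genes tested.

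Same-numbered libraries of the second experiment deviated together, in part through the split of replicates 1 to 3 from 4 and 5. This does not show that single libraries are paired. The replicate number was also fitted as a block, and the calls then grew. *HOXB5* was at 82.7, 86.6, 80.4, 55.1 and 51.9 CPM in OIS-v-v replicates 1 to 5 and at 138.3, 134.2, 138.6, 92.0 and 82.1 CPM in OIS-shCEBPB, higher within all 5 pairs by a similar ratio. With the replicate block 5 members were called in OIS-shCEBPB against OIS-v-v, where 31.9% of all genes were: *HOXB4* (0.43 ± 0.08, adjusted p = 0.00181) and *HOXB8* (0.84 ± 0.12, adjusted p = 0.000166) rose besides. *HOXB6* at 0.08 ± 0.04 (adjusted p = 0.143) and *HOXB7* at 0.095 ± 0.06 (adjusted p = 0.264) were not called with the block, nor in replicates 1 to 3 or replicates 4 and 5 alone. *HOXB8* went from 5.79, 5.59, 5.56, 2.23 and 3.20 CPM to 9.25, 10.4, 9.64, 5.62 and 4.73 CPM. Replicates 1 to 3 alone gave 6 calls (32.6% of all genes) with *HOXB5* at 0.71 ± 0.05, and replicates 4 and 5 alone gave 5 (24.6%) with *HOXB5* at 0.71 ± 0.08. Without the block, *HOXB5* lost its call when OIS-shCEBPB replicate 1, 2 or 3 was left out, and 5 members were called without OIS-v-v replicate 4. In the same cells *HOXA3* and *HOXA5* differed by -0.11 ± 0.26 and 0.11 ± 0.16 and were not called.

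The shp53 hairpin gave no call among 12 members in OIS-shp53 against OIS-v-v by edgeR, where 4.44% of all genes were called and 1.97% were lower. An unadjusted p under 0.05 was seen for 4 members, and DESeq2 also called 0. With the replicate block 4 members fell, where 22.7% of all genes were called. These were *HOXB8* (by 0.68 ± 0.12, adjusted p = 0.00173), *HOXB5* (by 0.27 ± 0.07, adjusted p = 0.0132), *HOXB6* (by 0.19 ± 0.05, adjusted p = 0.014) and *HOXB7* (by 0.22 ± 0.06, adjusted p = 0.0259), neighbours along the cluster. *HOXB8* was at 3.30, 3.79, 3.47, 1.54 and 1.82 CPM in OIS-shp53, below the same-numbered OIS-v-v library in all 5 pairs. In replicates 1 to 3 alone 6 members were called (34% of all genes), 5 lower and *HOXB4* higher, and in replicates 4 and 5 alone none was (5.33%).

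With both hairpins, 3 of 13 members tested rose against OIS-v-v, where 33.6% of all genes were called. *HOXB3* rose by 0.88 ± 0.07 (edgeR adjusted p = 2.42e-06), *HOXB4* by 0.66 ± 0.14 (0.00286) and *HOXB2* by 0.39 ± 0.05 (0.000193) on the log2 scale. The groups did not overlap for these 3 of the 13 members, against 24.5% of all genes tested. *HOXB3* was at 68.7, 69.5, 62.0, 58.4 and 63.3 CPM in OIS-shCEBPB-shp53, beside 64.8 to 71.96 CPM in the Grow-v-v libraries. With the replicate block *HOXB5* (0.42 ± 0.06, adjusted p = 0.000206) and *HOXA2* (1.10 ± 0.38, adjusted p = 0.0361) were called too, 5 in all, where 43.4% of all genes were. The count was 5 without OIS-v-v replicate 2 and in replicates 4 and 5 alone (28.7% of all genes), and 4 in replicates 1 to 3 alone (53.7%). The difference of the joint effect from the sum of both was not called for any of 14 members tested by edgeR (interaction term, 0 called, 0 at an unadjusted p under 0.05, 0 by DESeq2), where 0.0432% of all genes were called, 0.0216% in either direction alone, and 0 members were called with the replicate block, where 0.750% were. Each of these 3 comparisons used the same OIS-v-v libraries, as did that of OIS-v-v with Grow-v-v.

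**Figure D4:**
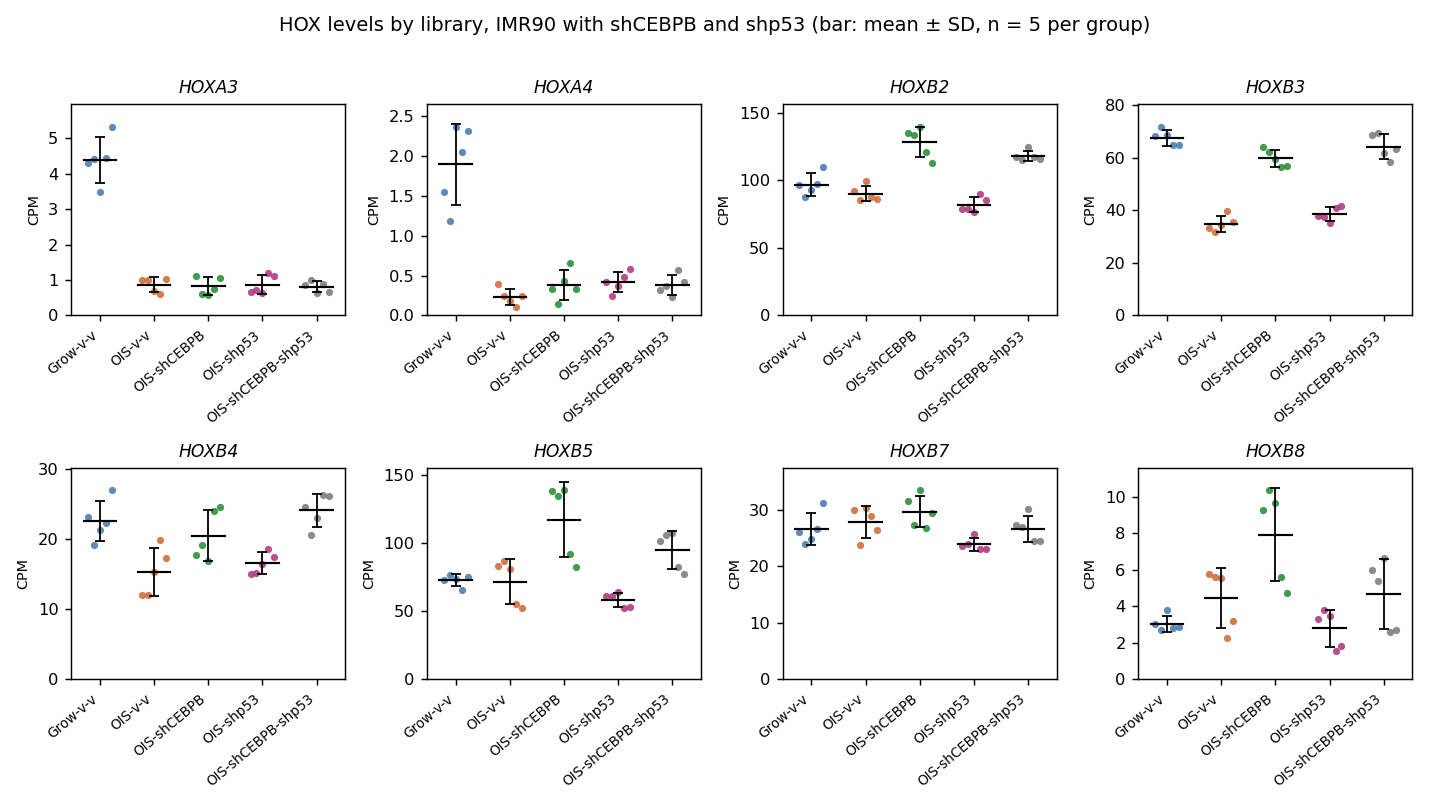
Level in CPM of *HOX* genes in each library of the 5 groups of the second IMR90 experiment, with replicates 1 to 5 as points from left to right within a group and the mean ± SD as lines. *HOXB3* is lower in OIS-v-v and OIS-shp53 than in the other groups, and *HOXB5* and *HOXB8* divide by replicate number within each OIS group.

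In H1299 with the *HMGA1* hairpin, the called genes of *HOXB* fell and those of *HOXC* and *HOXD* rose. Of 30 members tested in H1299-shA1 against H1299, 8 were called, 4 higher and 4 lower, where 15.6% of all genes were called, 8.65% higher and 6.93% lower. No *HOXA* gene was called. The 4 that rose were posterior genes, and the 4 that fell included *HOXB13* at the posterior end of its cluster. No overlap between the groups was seen for 3 of the 30 members, against 5.20% of all genes tested. Among the 11 posterior genes tested, 10 had a fold change above 0 and their median was 0.20, against -0.07 for the 12 central and -0.12 for the 7 anterior genes. All genes tested had a median of 0 in this comparison.

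*HOXC10* was at 5.72, 7.42 and 8.75 CPM in H1299 (lowest, median, highest) and 9.66, 11.9 and 12.8 CPM in H1299-shA1, and *HOXC9* at 3.58, 4.41 and 5.15 CPM in H1299 and 5.54, 5.85 and 6.33 CPM in H1299-shA1. The groups did not overlap for either gene. *HOXD13*, the last gene of its cluster and a regulator of digit formation, rose by 0.73 ± 0.18 (edgeR adjusted p = 0.00785), *HOXC10* by 0.63 ± 0.09 (9.99e-05), *HOXC13*, a hair and nail gene, by 0.55 ± 0.14 (0.00879) and *HOXC9* by 0.43 ± 0.09 (0.00332) on the log2 scale. *HOXA9*, *HOXA10*, *HOXA11* and *HOXA13* were 0.12 to 0.34 above H1299 and were not called.

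On the other side, *HOXB5* went from 7.02, 7.94 and 8.16 CPM to 4.27, 5.22 and 7.30 CPM and *HOXB6* from 11.9, 14.8 and 16.01 CPM to 8.70, 9.96 and 13.9 CPM, both with a small overlap that came from H1299-shA1 replicate 3. *HOXB5* fell by 0.52 ± 0.10 (edgeR adjusted p = 0.00183), *HOXB6* by 0.48 ± 0.09 (0.00159), *HOXB13* by 0.35 ± 0.11 (0.0394) and *HOXB3* by 0.20 ± 0.05 (0.0131) on the log2 scale. *HOXB2*, *HOXB4* and *HOXB9*, at 167.8, 105.5 and 31.4 CPM in H1299-shA1, were within 0.05 of H1299 on that scale and not called. The call of *HOXB13* was lost without any of H1299-shA1 replicates 2, 4, 5 and 6 and H1299 replicates 2, 3, 5 and 7.

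**Figure D5:**
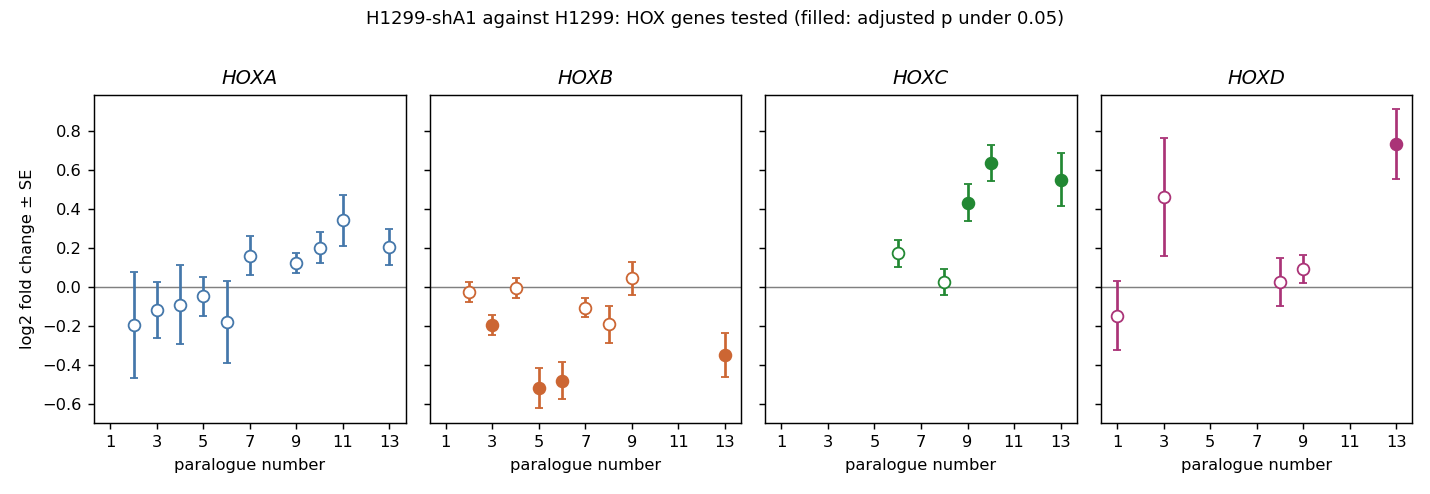
Log2 fold change with its standard error of *HOX* genes tested in H1299-shA1 against H1299, in order along the 4 clusters, filled where the test was passed. *HOXB5*, *HOXB6*, *HOXB13* and *HOXB3* fall, and *HOXC9*, *HOXC10*, *HOXC13* and *HOXD13* rise.

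Most TALE partners of *HOX* proteins tested fell in senescent cells of the first experiment. Of 10 tested of 11 listed, 7 fell and 2 rose in OIS against Grow, where 74.8% of all genes were called and 35.9% were lower, with a median of -0.49 against 0.03 for all genes. *MEIS1* fell by 2.19 ± 0.08 on the log2 scale, from 85.8 to 18.4 CPM, while *PBX2* and the repressor *TGIF1* rose by 0.31 ± 0.05 and 0.44 ± 0.06. In OIS-v-v against Grow-v-v 5 of 10 fell and 1 rose, where 45.8% of all genes were called, with *MEIS1* at -2.18 ± 0.17. Against OIS-v-v, 4 of 10 partners rose and 1 fell in OIS-shCEBPB (17.1% of all genes called), 1 rose in OIS-shp53 (4.44%), and 5 rose and 2 fell in OIS-shCEBPB-shp53 (33.6%). By edgeR 0 of 9 partners tested were called in H1299-shA1 against H1299 (15.6%).

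Regulators that set *HOX* chromatin were called no more often than other genes in OIS against Grow, where 74.8% of all genes were called. Of 26 Polycomb genes tested, 10 rose and 6 fell. *EZH2*, the H3K27 methyltransferase, fell from 28.5 to 7.08 CPM and its partner *PHF19* from 66.8 to 21.1 CPM, and *JARID2*, which helps recruit the same complex, rose from 31.6 to 67.8 CPM. Of 11 trithorax and demethylase genes 3 rose and 2 fell, and *KDM6B*, an H3K27 demethylase, rose from 22.7 to 60.6 CPM. In OIS-v-v against Grow-v-v 6 of 26 Polycomb genes rose and 6 fell (45.8% of all genes called), and in H1299-shA1 against H1299 3 rose and 4 fell (15.6%), where *EZH2* rose by 0.15 ± 0.05 on the log2 scale. Of 8 retinoic acid genes tested, a pathway that activates anterior *HOX* genes, 5 rose and 2 fell in OIS against Grow and 3 rose and 3 fell in OIS-v-v against Grow-v-v, where 74.8% and 45.8% of all genes were called, and *CYP26B1*, which breaks retinoic acid down, rose from 2.03 to 70.9 CPM and in the second experiment from 7.70 to 215.5 CPM. The part of these genes in the *HOX* changes was not tested.

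Of 18 listed non-coding RNAs of the clusters, 2 could be tested in OIS against Grow and both fell. *HOXB-AS3*, transcribed from the *HOXB* cluster near *HOXB5* and *HOXB6*, fell by 1.44 ± 0.12 on the log2 scale in OIS against Grow and by 0.61 ± 0.13 in OIS-v-v against Grow-v-v. It rose by 0.72 ± 0.12 in OIS-shCEBPB against OIS-v-v, and its fall in OIS was smaller with the *HMGA1* hairpin by 0.69 ± 0.16 (edgeR interaction term, adjusted p = 0.000877). *HOTAIRM1*, transcribed from the front of the *HOXA* cluster, fell by 0.80 ± 0.19 and 1.34 ± 0.18 in OIS and OIS-v-v. In the first experiment reads shared by a *HOX* gene and an overlapping RNA were not counted for either, and in the second the handling of such reads is not given in the sources used here, so these values are uncertain. Of 7 genes tested that flank the clusters, 4 fell and 1 rose in OIS against Grow, near the 74.8% of all genes called, and 3 fell and none rose in OIS-v-v against Grow-v-v, near the 45.8% called there. *LNPK* beside *HOXD* fell by 0.63 ± 0.06 and 0.53 ± 0.13.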

How the data were processed

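RNA was sequenced from IMR90 and H1299 cells, and the authors deposited whole-number counts of reads per gene. Per the study's methods and the file headers, reads were aligned to hg19 with STAR and counted over GENCODE exons with featureCounts (version 1.5.2 in the headers of the *HMGA1* hairpin tables of both cell lines, with strand not used). The table of the second experiment carries no command line, and its counting settings are not given in the sources used here. In the *HMGA1* hairpin tables reads that fell on more than 1 gene, on either strand, were left out. The number of replicates differs between the methods and the labels' protocol text, and every labelled library was used. The study's methods call the replicates biological, and the sources used here do not say whether they came from separate cultures. The p-values weigh a difference against the spread between these libraries.

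Genes were named through a table of gene IDs and symbols (42662 of 44503, 95.9%). Each comparison was fitted to all genes that passed edgeR's filter on low counts, with TMM scaling and edgeR's quasi-likelihood test (edgeR 4.0.16, R 4.3.3), and p-values were adjusted by Benjamini-Hochberg over all genes tested, with calls at an adjusted p under 0.05. Levels are CPM after TMM scaling of each table's libraries together, and the tables were scaled separately. No sample column was left unused, and results for some genes are not reported here. Full statistics are given for up to 6 rises and 6 falls with the largest change among called members averaging at least 1 CPM, and any member may be named with its level. The members and gene lists were chosen with earlier results of these data known.

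Replicate numbers are shared between groups. In the second experiment every same-numbered pair correlated above 0.1 in its deviations from the group means (0.133 to 0.542). From 2 to 4 of 5 libraries were closest to their own number. The split between replicates 1 to 3 and replicates 4 and 5 is part of these deviations, so the correlations do not show that single libraries are paired. Fits with the replicate number as a block are given where they change a call. Alternatives were DESeq2 1.42.0, other scalings and filters, a fold limit of 1.5, all groups in 1 fit, the replicate block and leaving out each library, and, chosen after seeing the data, replicates 1 to 3 and replicates 4 and 5 of the second experiment alone. The fit was tested on simulated data. Summaries used Python 3.11.15 with pandas 2.3.3 and matplotlib 3.10.9.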

Additional observations from a re-analysis of the deposited data

Results flagged for a closer look

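Of 143 groups of 4 to 10 samples tested for a sample far from the others, 9 were flagged, where chance flags about 1 in 20. In OIS replicate 4, the shallowest library, *HOXB4* was at 12.68 CPM (others 8.48 to 10.3), *HOXB6* at 11.21 CPM (others 15.6 to 18.5) and *HOXB7* at 22.43 CPM (others 13.74 to 15.1). Elsewhere in the first experiment *HOXA2* was at 2.079 CPM in Grow-shA1 replicate 6 (others 0.741 to 1.31) and *HOXC6* at 0.489 CPM in OIS replicate 1 (others 1.09 to 1.58). In the second experiment *HOXB8* was at 3.804 CPM in Grow-v-v replicate 3 (others 2.68 to 3.01) and *HOXB2* at 124.9 CPM in OIS-shCEBPB-shp53 replicate 3 (others 115.2 to 117.5). In the third *HOXA9* was at 27.6 CPM in H1299-shA1 replicate 5 (others 23.8 to 24.4) and *HOXB6* at 13.93 CPM in H1299-shA1 replicate 3 (others 8.70 to 10.3). What set these libraries apart was not tested.

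The response of *HOXB5* to the *HMGA1* hairpin differed between senescent and growing cells by 0.45 on the log2 scale (edgeR interaction term, adjusted p = 0.000505), with a fall of 0.25 in growing cells and a rise of 0.20 in senescent ones. The rise in senescent cells lost its call in 12 of the 16 fits that left out 1 library, and with DESeq2, so a rise by itself is uncertain.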

How the results depend on the processing

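Of 1115 values of called members under the alternatives, 1059 kept their side of the threshold, 56 no longer passed it and 0 reversed. Of these values 740 came from leaving out 1 library at a time, in fits that share most of their libraries. A called member that an alternative could not test gave no value, so requiring 10 counts in every library gave 37 values and DESeq2 52. The fold limit is not part of this tally. Of 265 counts of called members 231 stayed within 1.5 times the reported count and 34 did not, and the cause was not tested except where fewer genes or samples entered a fit. Requiring a fold change of 1.5 left 1 member in Grow-shA1 against Grow, 7 in OIS against Grow, 7 in OIS-shA1 against Grow-shA1, 0 in the interaction of shA1 with OIS and 2 in H1299-shA1 against H1299. Requiring 10 counts in every library, which tests fewer genes, left 6 in OIS against Grow, 0 in OIS-shA1 against OIS and 5 in OIS-v-v against Grow-v-v. With the replicate block 2 were called in OIS-shA1 against OIS, 5 in OIS-shCEBPB, 4 in OIS-shp53 and 5 in OIS-shCEBPB-shp53, each of these against OIS-v-v. In both *HMGA1* hairpin experiments correlations of same-numbered libraries ran from -0.145 to 0.288, with medians from -0.006 to 0.029. There 1 or 2 libraries were closest to their own number. Whether the numbers mark pairs in these experiments is not known. Other counts with the block stayed within 1.5 times. DESeq2 called 2 members in the interaction of shA1 with OIS. All groups in 1 fit gave 5 in OIS-shCEBPB and 5 in OIS-shCEBPB-shp53 against OIS-v-v, and no filter gave 5 in the latter. Replicates 1 to 3 alone gave 6 in OIS-shCEBPB and 6 in OIS-shp53, and replicates 4 and 5 alone 4 in OIS-v-v against Grow-v-v, 5 in OIS-shCEBPB and 5 in OIS-shCEBPB-shp53, both subsets being chosen after seeing the data.

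Leaving out 1 library at a time gave 2 to 4 called members in Grow-shA1 against Grow, 11 in all fits of OIS against Grow and of OIS-shA1 against Grow-shA1, 2 to 4 in OIS-shA1 against OIS, 1 to 3 in the interaction of shA1 with OIS, 8 to 9 in OIS-v-v against Grow-v-v, 2 to 5 in OIS-shCEBPB, 0 in OIS-shp53 and 3 to 5 in OIS-shCEBPB-shp53 against OIS-v-v, 0 in the interaction of shCEBPB with shp53, and 7 to 9 in H1299-shA1 against H1299. Scaling by library sizes alone moved the share of higher calls among all genes from 51.9% to 66.2% in OIS against Grow, from 49.4% to 60.3% in Grow-shA1 against Grow, from 52.3% to 27.8% in OIS-shA1 against OIS, from 51.7% to 20.4% in the interaction of shA1 with OIS, from 53.2% to 70.9% in OIS-shCEBPB and from 50.9% to 71% in OIS-shCEBPB-shp53 against OIS-v-v. Depth limits the low members: 3 counts were 0.125 to 0.229 CPM in a library, and 1.46 CPM in OIS replicate 4.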
